A study of Homo sapiens with 6 samples.

Results

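The long intergenic noncoding RNAs with a LINC symbol were taken from the gene counts of A549, a cell line derived from a human lung adenocarcinoma, after silencing of the antisense RNA FAM83H-AS1. Every row of the count table whose symbol was LINC, 0 and further digits was considered, and the rows with a sum of at least 60 counts over the 6 libraries were kept. Of the 40173 symbols in the table, 428 had such a name, of which 216 had no count in any library, 134 had between 1 and 59 counts and 78 were kept. The sum treats both groups alike, so the rule used the total level of a gene and not its change. The totals of the 78 members ranged from 62 to 13396 counts, with a median of 314. The 3 genes just outside the limit were LINC00638 with 59 counts, LINC00639 with 58 and LINC00853 with 55, and the 3 just inside were LINC00478 and LINC00570 with 62 counts each and LINC00921 with 64.

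RNA-Seq was performed on total RNA from 3 libraries labelled control, in which the cells had received a negative control siRNA, and 3 libraries labelled silence, in which they had received an siRNA against FAM83H-AS1. All cells were A549 cells harvested the day after transfection. The sources used here do not say whether the 3 libraries of a group came from separate cultures, so the spread between them may be technical, and p-values measure only that spread. The study asked how the RNA profile of the cells changed after the silencing.

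A LINC symbol is given to a long noncoding RNA gene that lies between protein-coding genes and has no published function at the time of naming. Such RNAs are transcribed by RNA polymerase II, are usually spliced and polyadenylated, and act in different ways, as scaffolds in chromatin, as decoys for RNA-binding proteins or microRNAs in the cytoplasm, or through their transcription alone. Some turn out to hold a short reading frame that is translated into a microprotein. Many are low in level and restricted to few tissues, and several have been studied in lung cancer because their level in tumours differs from that in normal lung.

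Library totals ranged from 9738291 to 17742643 counts, and the members took 0.0826% to 0.0850% of the counts in the control libraries and 0.0891% to 0.0933% in the silenced libraries. The targeted RNA was reduced to 30.6% of its control level, with 14.5, 16.0 and 17.3 CPM (counts relative to the library total, per 1e6, with the total corrected by TMM) in control replicates 1 to 3 and 4.59, 4.44 and 5.57 CPM in silenced replicates 1 to 3 (log2 fold change -1.70, adjusted p = 7.99e-05 by edgeR). The rRNA pseudogene RNA5-8SP6 took 3.22% of all counts in control replicate 3 and 0.241% to 0.448% in the other 5 libraries. The summed level of the 6 epithelial markers EPCAM, CDH1, KRT7, KRT8, KRT18 and KRT19 was 4428 to 4727 CPM in the control libraries and 3533 to 3574 CPM in the silenced libraries. Markers of other cells were low, with 1.04 to 2.30 CPM for 4 leukocyte markers (CD3E at 0), 3.79 to 6.39 CPM for 3 endothelial markers and 25.9 to 37.6 CPM for 3 fibroblast markers (PDGFRA at 0). The epithelial sums did not overlap between the groups, and their part in the results was not tested. In bulk RNA, fewer cells with a transcript and less of it per cell cannot be told apart.

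Of the 78 members, 75 passed the filter on low counts and were tested with all other genes (edgeR's quasi-likelihood test, Benjamini-Hochberg adjustment over 15250 genes), and the 3 members just inside the limit were not. Each of the 75 was above the limit of the filter in at least 1 library of both groups. This does not show that each would have passed without the group where it was higher. Under 30 counts in 1 of the groups were found for 6 members. After silencing, 6 members were higher and 1 was lower with an adjusted p under 0.05, which is 9.33% of the 75 tested, compared with 17% of all tested genes. LINC00520, LINC00673, LINC00265, LINC00707, LINC00998 and LINC00294 rose and LINC00662 fell. By direction, the background was 8.75% of all tested genes for higher and 8.27% for lower levels. The fold change exceeded 2 for 1 member, LINC00520, or 1.33%, against 2.14% of all tested genes. The share of members past the threshold was therefore below that of the table as a whole, but the members were also shallower, with a median of 4.53 CPM compared with 21.6 CPM. Among the 10137 tested genes with totals of 73.7 to 3358 counts, 13.8% had an adjusted p under 0.05. That is the range of the tested members without the 4 lowest and the 4 highest totals. The distribution of totals within this range was not matched, so the members may still be shallower than these genes.

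**Figure D1:**
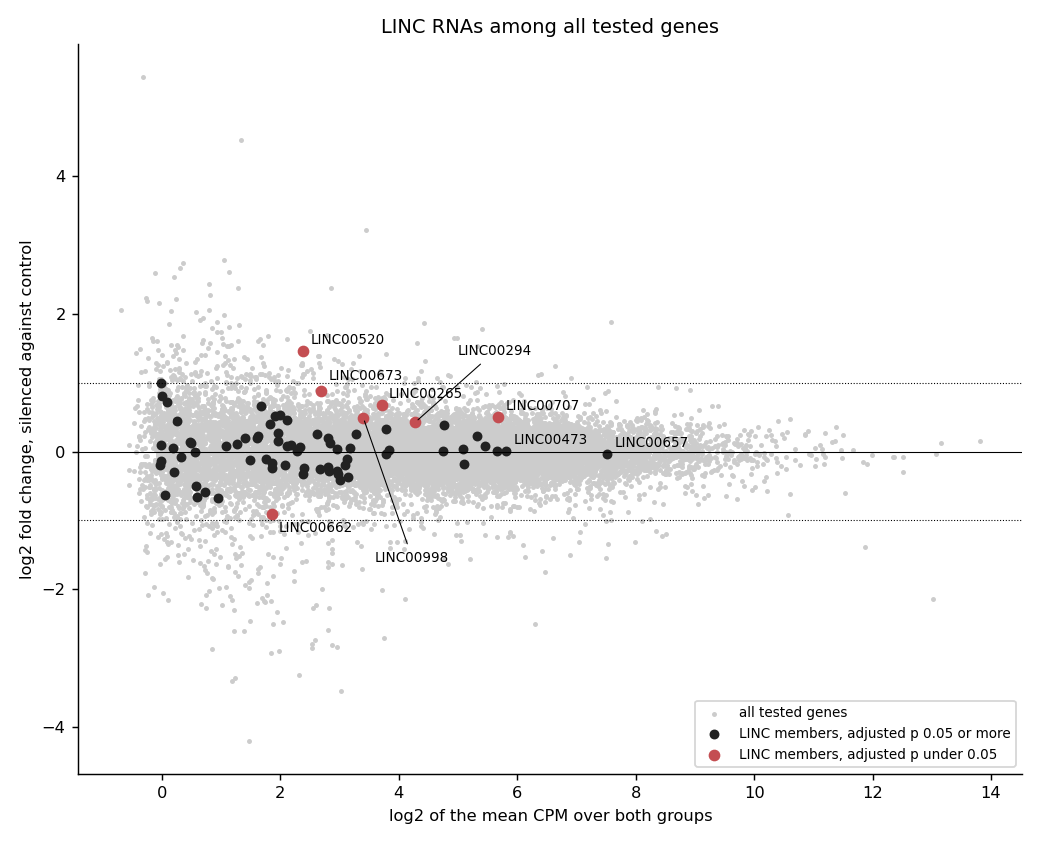
Log2 fold change, silenced against control (y axis), plotted against the log2 of the mean CPM over both groups (x axis) for all 15250 tested genes in grey and the 75 tested LINC members in black, or red where the adjusted p was under 0.05; dotted lines mark a fold change of 2. The red points are 6 members above 0 and 1 below, and only LINC00520 lies outside the dotted lines among them.

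The members were spread on both sides of 0. The estimate was positive for 45 and negative for 30, and the log2 fold changes ran from -0.90 to 1.45, with a median of 0.05 compared with -0.00 for all tested genes. The median absolute log2 fold change was 0.231 for the members and 0.199 for all genes, but the median standard error was 0.210 and 0.120. An unadjusted p under 0.05 was found for 17 of the 75 tested members and for 4894 of all 15250 tested genes, a larger share. For 21 members, or 28%, the groups did not overlap, with 14 higher and 7 lower in every silenced library, compared with 36.6% of all tested genes.

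The regions before the 5′ ends of the members that moved are shown first, since these are the stretches from which their transcription starts. RefSeq promoters, each 250 bases before to 50 bases after a gene's start on GRCh38.p14, were at hand for 57 of the 78 members and for 5 of the 7 that passed the threshold. LINC00520 and LINC00707 were not in the promoter table. Capitals mark matches, on either strand, to TATAAA (the TATA box), CCAAT (bound by NF-Y), GGGCGG (the GC box bound by SP1), CACGTG (an E-box), TGACGTCA (the palindrome bound by CREB and related factors) and TTGCATCA (bound by ATF4 with C/EBP partners). LINC00265 starts from chr7:39733318-39733617 (plus strand), LINC00673 from chr17:72592755-72593054 (minus strand), LINC00294 from chr11:33075900-33076199 (plus strand), LINC00998 from chr7:113118505-113118804 (minus strand) and LINC00662 from chr19:27793891-27794190 (minus strand).
LINC00265: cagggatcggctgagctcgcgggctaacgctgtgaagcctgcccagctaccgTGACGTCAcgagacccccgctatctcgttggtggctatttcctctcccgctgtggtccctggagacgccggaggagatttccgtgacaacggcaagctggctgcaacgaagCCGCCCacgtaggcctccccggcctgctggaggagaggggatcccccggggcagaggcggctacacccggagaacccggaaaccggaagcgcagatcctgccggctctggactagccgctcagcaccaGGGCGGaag
LINC00673: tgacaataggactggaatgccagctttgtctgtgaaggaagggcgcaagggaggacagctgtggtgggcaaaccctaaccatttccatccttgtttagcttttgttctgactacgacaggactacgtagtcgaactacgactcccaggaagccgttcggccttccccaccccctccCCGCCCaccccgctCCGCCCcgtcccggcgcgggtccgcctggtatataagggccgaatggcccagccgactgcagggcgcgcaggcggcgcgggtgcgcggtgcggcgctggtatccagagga
LINC00294: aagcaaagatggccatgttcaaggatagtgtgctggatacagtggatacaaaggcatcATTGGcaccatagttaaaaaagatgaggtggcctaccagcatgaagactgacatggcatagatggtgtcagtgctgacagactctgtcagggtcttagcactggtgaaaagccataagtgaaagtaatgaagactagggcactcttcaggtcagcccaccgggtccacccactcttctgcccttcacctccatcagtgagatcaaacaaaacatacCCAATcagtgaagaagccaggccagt
LINC00998: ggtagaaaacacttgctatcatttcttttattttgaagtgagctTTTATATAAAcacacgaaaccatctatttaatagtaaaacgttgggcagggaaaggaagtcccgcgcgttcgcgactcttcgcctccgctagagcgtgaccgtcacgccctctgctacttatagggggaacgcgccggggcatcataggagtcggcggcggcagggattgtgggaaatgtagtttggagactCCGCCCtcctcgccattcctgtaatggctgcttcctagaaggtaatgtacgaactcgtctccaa
LINC00662: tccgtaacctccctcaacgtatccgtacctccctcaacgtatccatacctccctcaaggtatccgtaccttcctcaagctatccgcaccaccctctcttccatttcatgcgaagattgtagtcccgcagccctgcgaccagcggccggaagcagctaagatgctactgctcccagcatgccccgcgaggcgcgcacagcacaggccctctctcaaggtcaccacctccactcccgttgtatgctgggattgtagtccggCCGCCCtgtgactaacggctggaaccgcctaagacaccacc

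GGGCGG was present in LINC00265, LINC00673, LINC00998 and LINC00662, and so in members that rose and in the one that fell. It was found in 50.9% of the 57 member promoters and in 44.6% of all 27305 promoters. In LINC00998, TATAAA occurs on both strands, and these matches overlap to form 1 run of capitals. This run lies near the upstream end of the stretch, far from the start. A match was accepted anywhere in the 300 bases, so it marks the letters and not a working TATA box. LINC00673 holds tatataag nearer to its start, which does not match TATAAA and was left in lower case. TATAAA was found in 7.02% of the member promoters and 12.0% of all promoters. LINC00265 held 1 TGACGTCA, which was found in 3.51% of member promoters and 1.98% of all. The only other member with it did not pass the threshold. LINC00294 held CCAAT but no GGGCGG. Of the member promoters, 40.4% held CCAAT, compared with 35.7% of all. CACGTG was found in 7.02% and 7.43%, and TTGCATCA in 0 of the member promoters and 0.923% of all. The GC content of the 5 sequences was 66.7% for LINC00265, 63.3% for LINC00673, 59.3% for LINC00662, 50.3% for LINC00998 and 48.0% for LINC00294.

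LINC00520, on chromosome 14, showed the largest change. It is an intergenic RNA of 5 merged exons that has been studied in several tumours and in endothelial cells, where it is also called LEENE. Its level was 2.57, 2.16 and 3.55 CPM in control replicates 1 to 3 and 8.01, 7.58 and 7.58 CPM in silenced replicates 1 to 3. Every silenced library was above every control library, and the lowest silenced value exceeded the highest control value by more than the range of either group. The mean rose from 2.76 ± 0.713 to 7.72 ± 0.245 CPM (SD, n = 3), 280% of the control level, with a log2 fold change of 1.45 (SE, the standard error, 0.213, adjusted p = 0.00162). These levels rest on 25, 25 and 60 counts in the control and 82, 82 and 102 counts in the silenced libraries. The call held in all 13 alternatives tried, in which the log2 fold change ranged from 1.30 to 1.71 and the adjusted p was at most 0.0109. The nearest tested coding gene, KTN1, lies 80 kb away on the other strand, with a log2 fold change of 0.22 (adjusted p = 0.0723).

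LINC00673, on chromosome 17, rose to 186% of its control level. It is a long noncoding RNA studied in pancreatic and lung cancer. The control libraries had 4.01, 4.66 and 4.91 CPM and the silenced libraries 8.69, 8.32 and 8.25 CPM, so the groups were apart and the silenced libraries lay close together. The means were 4.53 ± 0.464 and 8.42 ± 0.236 CPM (SD, n = 3), and the log2 fold change was 0.88 (SE 0.163, adjusted p = 0.00519). This change also passed the threshold in all 13 alternatives, with an adjusted p of at most 0.0285.

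LINC00707, on chromosome 10, changed less but was measured with far more counts, 371 to 776 per library. It has been studied in lung adenocarcinoma, where it is described as growth-promoting. Its level was 38.1, 42.8 and 45.9 CPM in the control and 61.1, 63.6 and 56.0 CPM in the silenced libraries, again without overlap. The means were 42.3 ± 3.90 and 60.3 ± 3.86 CPM (SD, n = 3), with a log2 fold change of 0.50 (SE 0.0899, adjusted p = 0.00443). The adjusted p was at most 0.0243 in the 13 alternatives. SFMBT2, the nearest tested coding gene, 279 kb away on the other strand, had a log2 fold change of 0.54 (adjusted p = 0.00254). Exons of LINC00707 overlap those of 3 RNAs known by a clone name on the same strand, and how reads in shared exons were counted is not stated.

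LINC00265, on chromosome 7, is a long noncoding RNA studied in several cancers. It rose from 10.9, 9.41 and 9.93 CPM in the control to 19.4, 14.2 and 14.7 CPM in the silenced libraries, with silenced replicate 1 standing above the others. The means were 10.1 ± 0.753 and 16.1 ± 2.87 CPM (SD, n = 3), and the log2 fold change was 0.68 (SE 0.146, adjusted p = 0.0107). Without silenced replicate 1, it was 0.53 and the adjusted p was 0.0516. Its counts are uncertain, since 22.0% of the 50-base words in its exons also occur in other loci, foremost the pseudogene GTF2IP13. RALA, the nearest tested coding gene, had a log2 fold change of -0.18 (adjusted p = 0.211).

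LINC00294, on chromosome 11, had 15.1, 15.7 and 18.7 CPM in the control and 23.1, 22.0 and 21.9 CPM in the silenced libraries. The groups were apart, with control replicate 3 nearest to the silenced libraries. The means were 16.5 ± 1.91 and 22.3 ± 0.703 CPM (SD, n = 3; log2 fold change 0.43, SE 0.110, adjusted p = 0.0240). The locus of the coding gene TCP11L1 overlaps it on the same strand, and TCP11L1 rose from 25.4 to 36.3 CPM (log2 fold change 0.50, adjusted p = 0.0121). CSTF3, a factor of RNA 3′ end cleavage whose exons overlap LINC00294 on the opposite strand, had a log2 fold change of -0.01 (adjusted p = 0.984). Whether reads were assigned by strand is not stated, so reads of the overlapping exons cannot be told apart.

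LINC00662, on chromosome 19, was the only member that was lower with an adjusted p under 0.05. It is studied as a growth-promoting RNA in liver and lung cancer. Its level was 4.22, 5.44 and 4.55 CPM in the control and 1.86, 2.22 and 3.42 CPM in the silenced libraries. No silenced library reached the lowest control value, and silenced replicate 3 was the highest of its group. The means were 4.74 ± 0.633 and 2.50 ± 0.818 CPM (SD, n = 3), 52.7% of the control level, with a log2 fold change of -0.90 (SE 0.258, adjusted p = 0.0356). The result depended on single libraries, as the adjusted p rose to between 0.0518 and 0.131 when any one of control replicates 1, 2 and 3 or silenced replicates 1 and 2 was left out. Without silenced replicate 3, the log2 fold change was -1.21, past the fold change of 2. Exons of 2 RNAs known by a clone name overlap it on the opposite strand.

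**Figure D2:**
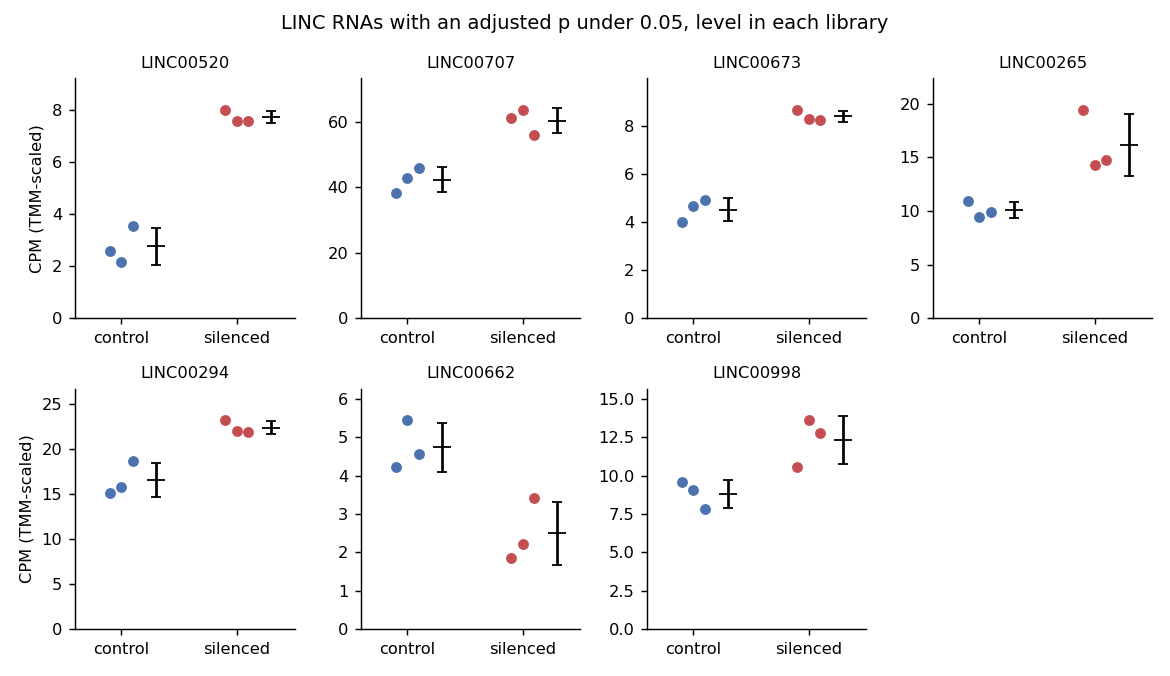
Level in each library (y axis, CPM scaled by TMM, each panel from 0) of the 7 LINC members with an adjusted p under 0.05, for the 3 control libraries in blue and the 3 silenced libraries in red, with the mean and SD beside them in black. No silenced point overlaps the control points in any panel, LINC00520 is the farthest apart relative to its level, and LINC00662 is the only one that is lower after silencing.

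For each of these 7 members, the silenced libraries did not overlap the control libraries, which gives p = 0.1 in a two-sided exact permutation test, the smallest p that 3 libraries against 3 allow. Passing the threshold therefore depends on the estimate of spread that edgeR pools over genes.

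LINC00998 and LINC00493 are members whose names predate the discovery of a reading frame, and the current RefSeq symbols are SMIM30 and SMIM26, for small integral membrane proteins of the endoplasmic reticulum and of the mitochondrion. The list of 7 microprotein genes also held LINC00116, now MTLN, which encodes mitoregulin of the inner mitochondrial membrane. The renamed SMIM genes are among the 6 members that are now protein-coding in RefSeq. Their coding sequences from GENCODE 29 are printed, with the start and stop codons in capitals. That of LINC00998 has 59 codons before the stop and that of LINC00493 has 95.
LINC00998: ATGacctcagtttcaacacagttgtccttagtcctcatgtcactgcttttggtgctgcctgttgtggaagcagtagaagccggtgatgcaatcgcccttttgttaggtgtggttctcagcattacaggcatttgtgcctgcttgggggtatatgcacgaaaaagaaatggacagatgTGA
LINC00493: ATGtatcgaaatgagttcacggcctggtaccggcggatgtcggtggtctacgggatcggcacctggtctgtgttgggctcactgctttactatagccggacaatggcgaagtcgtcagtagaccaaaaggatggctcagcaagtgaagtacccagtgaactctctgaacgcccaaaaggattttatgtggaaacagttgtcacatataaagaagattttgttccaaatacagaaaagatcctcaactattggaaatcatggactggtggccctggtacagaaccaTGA

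LINC00998, on chromosome 7, rose from 9.56, 9.07 and 7.80 CPM in the control to 10.5, 13.6 and 12.8 CPM in the silenced libraries. The groups did not overlap, although silenced replicate 1 was only a little above the highest control. The means were 8.81 ± 0.906 and 12.3 ± 1.58 CPM (SD, n = 3), and the log2 fold change was 0.49 (SE 0.148, adjusted p = 0.0417). Leaving out any of control replicates 1, 2 and 3 or silenced replicates 2 and 3 took the adjusted p to between 0.0533 and 0.130. LINC00493 had 10.3, 8.46 and 9.05 CPM in the control and 5.57, 7.40 and 7.73 CPM in the silenced libraries. All of its silenced values were below all control values, with a log2 fold change of -0.41 that did not pass the threshold (SE 0.168, adjusted p = 0.116). LINC00116 overlapped between the groups, with 9.21 ± 2.17 CPM in the control and 7.95 ± 1.44 CPM in the silenced cells (SD, n = 3; log2 fold change -0.19, adjusted p = 0.551). Of the 7 listed genes, 3 were tested. With an adjusted p under 0.05, 1 rose and none fell, compared with 17% of all tested genes past that threshold. So few genes cannot be set against that share. LINC00961 and LINC00087 had 9 counts each, LINC00086 was at 0 and LINC01420 was not analysed here.

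Among the members renamed since, 6 are now protein-coding genes in RefSeq and 1 is a pseudogene, whereas 71 members remain long noncoding RNAs. The renamed protein-coding members, LINC00085 (SPACA6), LINC00094 (BRD3OS), LINC00116, LINC00493, LINC00984 (INAFM2) and LINC00998, had log2 fold changes from -0.41 to 0.49, with a median of 0.11 and 1 past the threshold. In all, 23 of the 78 members carry another name now, of which 22 were tested and 1 passed the threshold. Of the 53 tested members that kept their name, 6 passed it. Both shares were below the 17% of all tested genes, and the difference between them was not tested.

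Of 19 listed LINC RNAs that have been studied in lung and other cancers, 15 were tested. Of these, 2 rose (LINC00520 and LINC00673), 1 fell (LINC00662) and 12 did not pass the threshold. The share that passed was near the 17% of all tested genes. LINC00707 and LINC00265 also rose and have been studied in cancers but were not on the list, so the tally depends on the list. The median log2 fold change of the 15 was 0.02. LINC00963, studied in prostate and lung cancer, came nearest among the others. It had 19.0, 23.8 and 27.7 CPM in the control and 34.6, 27.4 and 31.0 CPM in the silenced libraries. Silenced replicate 2 lay below control replicate 3, so the groups overlapped (log2 fold change 0.39, SE 0.136, adjusted p = 0.0744). It passed the threshold in 4 of the 13 alternatives, with an adjusted p of 0.00933 when all genes with at least 1 count were tested, 0.0327 without control replicate 3, 0.0432 on counts thinned to the smallest library and 0.0446 with library size alone as the scaling.

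LINC00958, studied in bladder and lung cancer, had 32.8, 36.8 and 40.9 CPM in the control and 41.5, 43.5 and 44.8 CPM in the silenced libraries. The groups did not overlap, but the gap between the nearest values was small and the log2 fold change of 0.23 did not pass the threshold (SE 0.0939, adjusted p = 0.122). LINC00473, which is transcribed through CREB and CRTC in lung cancers that have lost the kinase LKB1, as A549 cells have, had 55.4, 55.1 and 57.9 CPM in the control and 58.3, 51.0 and 59.4 CPM in the silenced libraries. Its levels overlapped, and the log2 fold change was 0.00 (SE 0.0811, adjusted p = 0.987). LINC00857, studied in lung cancer, had 9.97 ± 1.79 and 7.74 ± 1.49 CPM (SD, n = 3; log2 fold change -0.36, adjusted p = 0.222), again with overlap. LINC00152 or CYTOR, a cytoplasmic RNA that is high in many tumours, had 14.0 ± 3.80 and 13.5 ± 3.59 CPM (SD, n = 3; log2 fold change -0.03, adjusted p = 0.946). Its counts are uncertain, since 24.1% of its 50-base words also occur in other loci, foremost its copy MIR4435-2HG.

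The remaining cancer LINC RNAs had log2 fold changes between -0.20 and 0.13 with overlapping groups. LINC00472, a suppressor of growth in breast cancer, was at 6.91 ± 1.87 and 7.48 ± 0.966 CPM (SD, n = 3; log2 fold change 0.13, adjusted p = 0.712). LINC00346, now PRECSIT, was at 14.2 ± 1.26 and 14.3 ± 1.25 CPM (SD, n = 3; log2 fold change 0.02, adjusted p = 0.937). LINC00941 had a log2 fold change of -0.20 (adjusted p = 0.584). For LINC00467 the value was 0.12 (adjusted p = 0.799) and for LINC00668 it was -0.11 (adjusted p = 0.779). For LINC00511, on chromosome 17 like LINC00673, it was 0.09 (adjusted p = 0.896), and for LINC00312 it was -0.14 (adjusted p = 0.880). LINC00511 and LINC00312 had totals of only 69 and 73 counts, and their standard errors of 0.376 and 0.480 are too wide to show a moderate change. LINC00261 was at 0 in all libraries, LINC00460 had 1 count and LINC00665 had 8 counts, and LINC01116 was not analysed here.

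Both listed members linked to DNA damage and p53 did not pass the threshold. LINC00657, now NORAD, is an abundant RNA that binds PUMILIO proteins and keeps chromosomes stable. Its level was 172, 186 and 198 CPM in the control and 181, 181 and 180 CPM in the silenced libraries. The silenced libraries lay within the control range (log2 fold change -0.04, SE 0.0721, adjusted p = 0.744). Of its 50-base words, 30.3% also occur in other loci, foremost OVCH1-AS1. LINC01021, now PURPL, a p53 target that lowers p53, had 9.04 ± 0.835 and 8.37 ± 1.68 CPM (SD, n = 3; log2 fold change -0.11, adjusted p = 0.697). Of 4 listed hosts of small RNAs, 1 was tested, LINC00338, now SNHG20 (7.82 ± 1.25 and 6.39 ± 0.743 CPM, SD, n = 3; log2 fold change -0.29, adjusted p = 0.289). LINC00478, which hosts a microRNA cluster with let-7c, had 5, 8 and 24 counts in the control and 5, 9 and 11 counts in the silenced libraries and was not tested. LINC00461 and LINC00599 were at 0. By annotation, 5 tested members had a small RNA gene inside on their own strand, LINC00085, LINC00152, LINC00338, LINC00472 and LINC00888. Of these, 0 passed the threshold, compared with 17% of all tested genes.

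**Figure D3:**
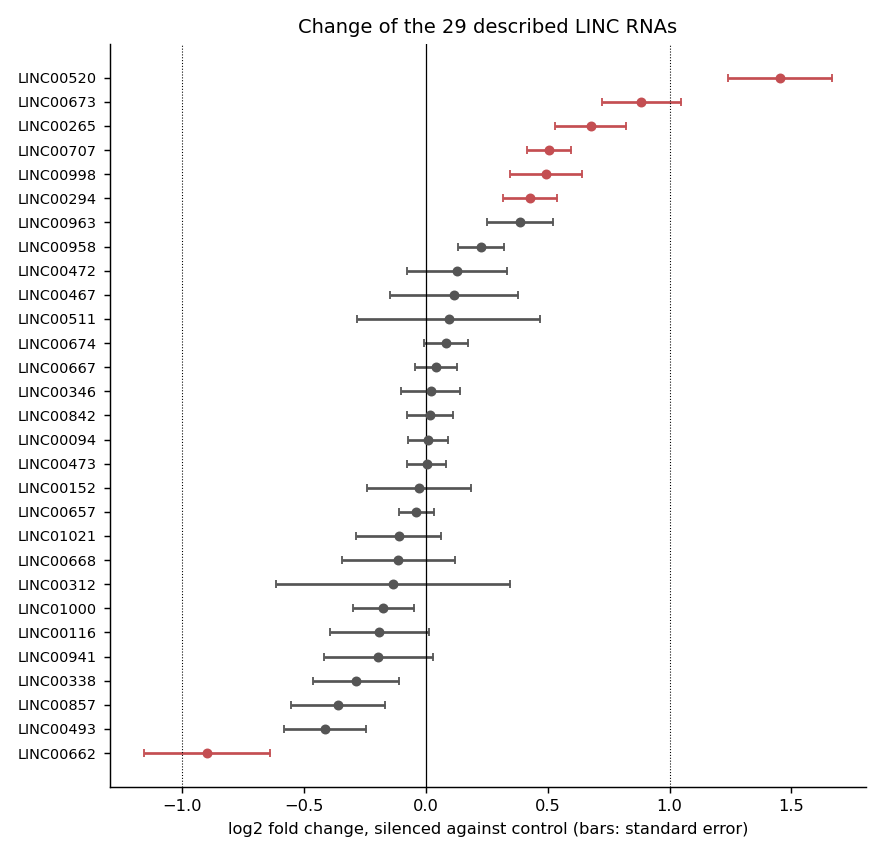
Log2 fold change, silenced against control (x axis), of the 29 LINC members described by the naming rule, each a point with its standard error as a bar, sorted by value; red points have an adjusted p under 0.05 and dotted lines mark a fold change of 2. The points run from LINC00662 at -0.90 to LINC00520 at 1.45, and most bars between LINC00941 and LINC00472 cross 0.

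In level, a few members dominated. The mean over both groups ranged from 0.794 to 183 CPM, with a median of 4.33 CPM, and 42 members were under 5 CPM and 16 over 10 CPM. The 10 highest members held 62.4% of the CPM of all members and LINC00657 alone 20.9%. Of these 10, LINC00707 rose, while LINC00657, LINC00473, LINC00094, LINC00674, LINC00958, LINC01000, LINC00667, LINC00963 and LINC00842 did not pass the threshold. Of all tested genes, 17% passed it. LINC00094, now BRD3OS, had 50.1 ± 3.17 and 50.4 ± 3.14 CPM (SD, n = 3; log2 fold change 0.01, adjusted p = 0.968). Exons of BRD3, a bromodomain protein that reads acetylated histones, overlap it on the opposite strand, and BRD3 fell from 74.9 to 60.5 CPM (log2 fold change -0.31, adjusted p = 0.0251). LINC00674 had a log2 fold change of 0.08 (adjusted p = 0.561), LINC00667 of 0.04 (adjusted p = 0.787) and LINC00842 of 0.02 (adjusted p = 0.936), each with overlapping groups. For LINC01000, 36.4 ± 5.44 and 32.3 ± 3.97 CPM were measured (SD, n = 3; log2 fold change -0.18, adjusted p = 0.364).

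Summed over all members, the level was 827, 839 and 891 CPM in the control and 921, 872 and 911 CPM in the silenced libraries. Silenced replicate 2 lay below control replicate 3, so the sums overlapped (means 852 ± 34.2 and 901 ± 25.5 CPM, SD, n = 3). This overlap depends on the scaling, as control replicate 3 had the lowest TMM factor, 0.955. As shares of the uncorrected totals, the groups did not overlap (0.0826% to 0.0850% in the control and 0.0891% to 0.0933% in the silenced libraries). Of the difference of 48.9 CPM, LINC00707 made up 18.0 CPM.

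To compare levels between genes, CPM were divided by exon length, with the exons of all annotated transcripts of a gene merged. This length was known for the 69 members found in GENCODE 29 (540 to 27605 bases, median 3115). On this scale the control level was highest for LINC00674 with 58.2 ± 5.70 CPM per kb (SD, n = 3), followed by LINC00657 with 34.7 ± 2.39, LINC00162 with 16.7 ± 0.726 and LINC00958 with 12.8 ± 1.41 CPM per kb. These 4 were apart by more than their SD. LINC00842 with 9.35 ± 0.766, LINC00659 with 9.17 ± 0.0979, LINC00493 with 8.44 ± 0.845 and LINC00094 with 8.36 ± 0.528 CPM per kb came next and each lay within 1 SD, the larger of the pair, of a neighbour. The median member was at 1.34 CPM per kb. LINC00511 was lowest at 0.0348, with 57 merged exons from 106 annotated transcripts. A gene with many annotated transcripts can get a long merged length and so a low value on this scale. LINC00520 was below the median before silencing, at 0.792 ± 0.205, and above it afterwards, at 2.22 ± 0.0704 CPM per kb (SD, n = 3). LINC00473 and LINC00673 were not among the 69 and have no value on this scale.

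Several members without a pass of the threshold also separated the groups, and the following were picked after their values were seen. LINC00162 (PICSAR) had 11.6, 12.4 and 12.7 CPM in the control and 16.8, 13.7 and 15.7 CPM in the silenced libraries (log2 fold change 0.33, adjusted p = 0.0830). LINC00525 was at 2.50 ± 0.695 and 3.91 ± 0.427 CPM (SD, n = 3; log2 fold change 0.67, adjusted p = 0.105). Both were higher in each silenced library than in any control library. LINC00526 was at 2.39 ± 0.684 and 1.49 ± 0.196 CPM (SD, n = 3; log2 fold change -0.67, adjusted p = 0.140) and LINC00997 at 8.78 ± 0.387 and 6.99 ± 0.527 CPM (SD, n = 3; log2 fold change -0.32, adjusted p = 0.151), each lower in every silenced library. LINC00565 had the largest ratio among tested members that did not pass, to 200.1% of its control level (adjusted p = 0.141), from 4, 12 and 9 counts in the control and 17, 8 and 21 in the silenced libraries, with overlap.

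The position of a member in relation to other genes was set beside its change as a description. Of the 21 tested members whose exons overlap a gene on the opposite strand, LINC00294 rose and LINC00662 fell, with a median log2 fold change of 0.01. Of the 12 that overlap a gene on the same strand, LINC00707 rose, with a median of 0.07. Of the 38 without such overlap, 3 rose, LINC00520, LINC00265 and LINC00998, with a median of 0.09. Each of these shares was below the 17% of all tested genes that passed the threshold, and the differences between them were not tested. Nearest coding genes were sought among tested genes alone, so an untested coding gene may lie closer to a member. The member and its nearest tested coding gene had the same sign of change in 31 of 66 pairs. Some members share a nearest gene, such as SIK1 or ZBTB14, so the pairs are not all independent. Among pairs no more than 10000 bases apart, the sign was the same in 12 of 29. TMEM168, the nearest tested coding gene of LINC00998 at 326 kb, fell while LINC00998 rose (log2 fold change -0.58, adjusted p = 0.0305). In all, 9 tested members shared more than 20% of their 50-base words with other loci, so that their counts are uncertain. LINC00265 was the only one of them past the threshold, compared with 17% of all tested genes.

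Other long noncoding classes, chosen by name with the same limit of 60 counts, were set beside the LINC members. Of 157 tested genes with an antisense symbol, among them FAM83H-AS1 itself, 7 were higher and 2 lower with an adjusted p under 0.05 (5.73%). Of 13 tested SNHG genes, which host small nucleolar RNAs, 3 were lower and none higher, and of 12 host genes of microRNAs, 1 was higher and 1 lower. The share past the threshold was thus below the 17% of all tested genes for the antisense genes and near it for the SNHG genes and microRNA hosts, of which few were tested. The median log2 fold change was 0.05 for the LINC members, -0.07 for the antisense genes, -0.16 for the SNHG genes and 0.13 for the microRNA hosts. No test of the difference between the classes was made.

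**Figure D4:**
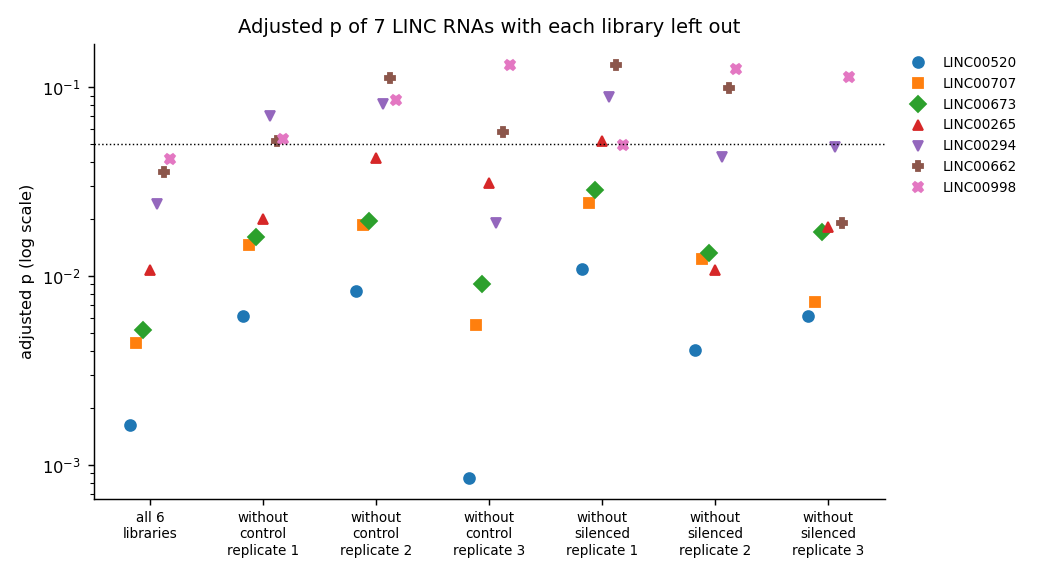
Adjusted p (y axis, log scale) of the 7 LINC members with all 6 libraries and with each library left out in turn (x axis); the dotted line marks 0.05. LINC00520, LINC00707 and LINC00673 stay below the line in every column, with at most 0.0109, 0.0243 and 0.0285, whereas LINC00265 crosses it in 1 column, LINC00294 in 3, LINC00662 in 5 and LINC00998 in 5.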

How the data were processed

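The authors prepared Ion Proton libraries from total RNA of A549 cells, counted mapped reads per gene with MapSplice and compared groups with DESeq. The deposited values are whole counts per gene symbol without normalization, 3 libraries per group. The submitters' processing notes name GRCh37; annotation, strand setting and handling of multiply mapped reads are not given in the sources used here. Counts were tested with edgeR 4.0.16 in R 4.3.3 (filterByExpr, TMM, quasi-likelihood F test, Benjamini-Hochberg adjustment over all 15250 genes that passed), with no covariates. A gene was called where the adjusted p was under 0.05 and the level moved by more than 2 times. Standard errors were derived from F (the size of the log2 fold change over the root of F). Totals of 9738291 to 17742643 counts limit the precision of members near 60 counts. Replicates differed by more than counting noise (chi-square per degree of freedom 4.20 to 29.7). The highest values, 25.3 and 29.7, belong to the pairs with control replicate 3, and the other pairs reached at most 10.3. The fit was checked on simulated data.

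Symbols were matched to RefSeq (78 of 78 members), promoters to GRCh38.p14 and exons to GENCODE 29 on GRCh38 (69 of 78), so no coordinate was read on the build of the counts. Named genes were members called, the 20 smallest adjusted p among those under 0.05, the 10 highest mean levels, tested members of 4 role lists, and FAM83H-AS1. The members and lists were chosen with earlier results of these data known. Alternatives were DESeq2 1.42.0, other size factors, filters, thresholds and limits on counts, the replicate number as a block, thinned counts and each library left out. Python 3.11.15, pandas 2.3.3 and matplotlib 3.10.9 were used for tables and plots.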

Additional observations from a re-analysis of the deposited data

How the results depend on the processing

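With an adjusted p under 0.01, 3 members passed, LINC00520, LINC00673 and LINC00707. Leaving out each library in turn gave 4 to 6 members in place of 7, and 1 to 2 with a fold change over 2 (LINC00662 joined LINC00520 without silenced replicate 3). DESeq2 gave 5 members, without LINC00662 (adjusted p = 0.0507) and LINC00998 (adjusted p = 0.0870). With library size only, and with all genes of at least 1 count, 8 members passed, the same 7 and LINC00963. On thinned counts LINC00294 (adjusted p = 0.0640) and LINC00998 (adjusted p = 0.0695) were lost and LINC00963 (adjusted p = 0.0432) was gained. LINC00294 also missed the threshold without control replicate 1 (adjusted p = 0.0699), control replicate 2 (0.0810) or silenced replicate 1 (0.0883). The median log2 fold change of the members ran from 0.00 (without control replicate 1) to 0.09 (library size only), and without single libraries up to 0.07. With the replicate number as a block, the same 7 members passed, 1 of them with a fold change over 2, and the median was 0.05; no call changed. Same-numbered libraries deviated together with correlations of 0.124, 0.149 and 0.0670, and every library correlated best with its own number, a hint from the data and not from the design.

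Sign changes occurred only for members that did not pass the threshold. LINC00473 had -0.0036 with DESeq2, -0.0012 with RLE size factors, -0.0063 with all genes of at least 1 count and -0.0011 thinned. LINC00152 had 0.0014 with library size only, and LINC00094 had -0.0016 with all genes of at least 1 count. Thinning gave -0.0664 for LINC00842, 0.12 for LINC00312 and -0.0129 for LINC00467. Without single libraries the log2 fold change ran from -0.0409 to 0.0665 for LINC00473, -0.0442 to 0.0619 for LINC00094, -0.0238 to 0.0818 for LINC00842, -0.26 to 0.20 for LINC00152, -0.0243 to 0.0929 for LINC00346, -0.0288 to 0.33 for LINC00472, -0.10 to 0.36 for LINC00511, -0.0900 to 0.0094 for LINC00657, -0.45 to 0.32 for LINC00312, -0.24 to 0.0904 for LINC00668 and -0.24 to 0.0392 for LINC01021. The cause was not tested. Members near the limit of 60 counts cannot show moderate changes at this depth.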
